A study of Capra hircus with 6 samples.

Results

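The genes described here belong to the major histocompatibility complex (MHC): the class I heavy chain gene BOLA (probe Bt00006686), the class II DR beta chain gene BOLA-DRB3 (probe Bt00006663) and BOLA-DMB (probe Bt00002165), the beta chain gene of the DM molecule. They were taken as every probe whose only platform symbol is 1 of these 3, which gave 3 genes of the 6670 named on a bovine oligonucleotide array, and 3 of its 8379 probes, 1 per gene. Another 3 probes are annotated to both BOLA and BOLA-NC1, a non-classical class I gene, and 4 to other class II genes. The platform annotation ties the symbol BOLA to a different gene record on the first 3 of these than on the member probe, so BOLA stands for more than 1 class I gene. They are no members, and are given beside them as the other MHC probes named on the array.

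MHC class I molecules, a heavy chain held by beta-2-microglobulin, show peptides made inside the cell to CD8 T cells and are carried by most nucleated cells. Class II molecules, pairs of an alpha and a beta chain, show peptides from taken-up material to CD4 T cells. In the mammary gland they are known mainly from macrophages, dendritic cells and B cells, and epithelial cells can make them too. The invariant chain CD74 holds the class II groove until proteases cut it down and DM exchanges its last fragment for a peptide. The interferon gamma pathway raises both classes.

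RNA came from the lactating mammary gland of 3 goats with the Low and 3 with the High CSN1S1 genotype, CSN1S1 being the gene of alpha-s1-casein, a milk protein whose alleles in goats differ in how much of it is made. Low and High goats alike had been without food for 48 h, and no fed goat was measured. The labels do not give age, breed or the single alleles. Each array held 1 Low and 1 High goat, in 3 pairs called A, B and C, and each pair was hybridised on a pair of arrays with the dyes exchanged. The log2 ratio of Low over High was taken on each array and averaged over the arrays of a pair, so n is 3 pairs. CSN1S1 itself had pair ratios of -2.57 (A), -2.84 (B) and -2.73 (C) (mean log2 ratio -2.71 ± 0.13, SD, n = 3; limma adjusted p = 2.91e-09), which goes with the genotype labels. Of the 8379 probes, 6733 were bright enough to be tested, and per reading 66.3 to 77.3% of the probes lay above background in Cy3 and 82.3 to 87.4% in Cy5. The number of arrays limits the precision.

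All members were measured well in both genotypes. Each was above background in each of the 6 Low and 6 High readings, and no spot of theirs was left out or saturated. The probes are bovine and the RNA caprine, and 0 of the 3 symbols occur in the goat gene table used for names. MHC genes are also polymorphic and have close relatives, so a ratio can hold a difference in how well an animal's alleles bind the probe, and near-identical copies cannot be told apart. In whole tissue, fewer cells of a type and less RNA per cell cannot be told apart either.

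BOLA, the class I heavy chain, had a raw signal of 418 to 775 in the 3 Low readings in Cy3, against 436 to 800 in the High readings in the same dye. In Cy5 its signal was 530 to 1063 in Low goats and 699 to 1154 in High goats. Every reading was at least 5.64 times its local background. Within each dye the genotypes' readings overlapped over most of their range.

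After normalisation the level of BOLA, the mean of a goat's readings in log2 intensity, was 9.86 (A), 9.001 (B) and 9.36 (C) in the Low goats, against 9.84 (A), 9.23 (B) and 9.59 (C) in the High goats. The genotypes overlapped: the Low goat of pair A had the highest level of all and the Low goat of pair B the lowest. Means were 9.41 ± 0.43 in Low goats and 9.55 ± 0.31 in High goats (SD, n = 3 each).

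The BOLA-DRB3 probe read 9.15 (A), 9.62 (B) and 8.90 (C) in the Low goats, against 9.34 (A), 9.71 (B) and 8.96 (C) in the High goats, on the same log2 intensity scale. Here pair B was the highest and pair C the lowest in both genotypes, and in each pair the Low goat lay below its High partner. Means were 9.22 ± 0.37 in Low goats and 9.34 ± 0.37 in High goats (SD, n = 3 each).

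BOLA-DMB, the beta chain of the peptide exchanger DM, varied least. Its level was 8.80 (A), 8.91 (B) and 9.04 (C) in the Low goats, against 8.71 (A), 8.86 (B) and 8.99 (C) in the High goats. Each Low goat lay above its partner, but by less than the step from one pair to the next in the same genotype. Means were 8.92 ± 0.12 in Low goats and 8.85 ± 0.14 in High goats (SD, n = 3 each). For all members the goats of a pair lay nearer to each other than the 3 goats of a genotype did on the whole. These goats share arrays, so an animal's own level and its arrays cannot be told apart. In no member did the levels of the genotypes separate in either direction. Of the tested probes, 0.683% had all Low goats below all High goats, and the share with all Low goats above was not counted. Levels are not set against each other between genes, because probes differ in how they bind.

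**Figure D1:**
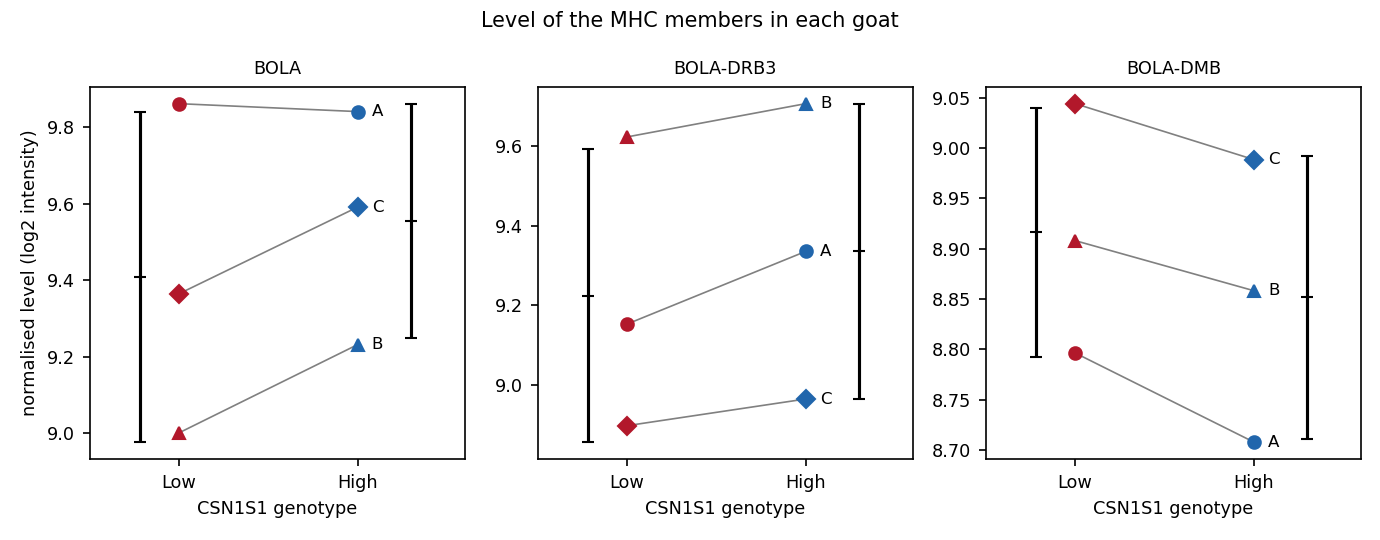
Normalised level (log2 intensity, vertical axis, own range per gene) of BOLA, BOLA-DRB3 and BOLA-DMB in the 3 Low and the 3 High goats, each point 1 goat, with lines joining goats that shared arrays and bars giving mean ± SD (n = 3). The genotypes overlap for each gene, and the pairs keep similar places in both genotypes, as for BOLA-DRB3, with 9.62 in the Low and 9.71 in the High goat of pair B.

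The comparison of Low with High goats was made within pairs. None of the members passed the test: 0 of 3 had an adjusted p under 0.05 (limma, Benjamini-Hochberg over 6733 probes), while 30 of all tested probes did, or 0.446% (0.416% lower and 0.0297% higher in Low goats). At an unadjusted p under 0.05, 2 of 3 members were counted, BOLA and BOLA-DRB3, both lower in Low goats, against 758 probes, or 11.3%, in either direction and 5.47% lower in Low goats.

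For BOLA the pair means were 0.021 (A), -0.23 (B) and -0.23 (C). Pair A was near 0 and the other pairs were close to each other. The mean log2 ratio of Low over High was -0.15 ± 0.14 (SD, n = 3; limma's 95% interval -0.26 to -0.028), a Low level 0.904 times that in High goats. This interval and those of the other members rest largely on a spread pooled over all tested probes. They therefore do not follow from the SD printed beside them, and whether they include 0 can depend on the pooling. The limma test gave an adjusted p of 0.367. Without pair A the ratio was -0.23, still not passing (limma adjusted p = 0.0551).

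The DR beta chain probe BOLA-DRB3 had pair means of -0.18 (A), -0.084 (B) and -0.067 (C). All lay below 0, as did the pair means of 16.9% of the tested probes, and pair A was the farthest. The mean log2 ratio was -0.11 ± 0.063 (SD, n = 3; 95% interval -0.20 to -0.023), a Low level 0.926 times that in High goats. Its adjusted p was 0.361 in limma.

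For BOLA-DMB the pair means were 0.088 (A), 0.050 (B) and 0.056 (C), all above 0, as were those of 18.6% of the tested probes. The mean log2 ratio was 0.065 ± 0.021 (SD, n = 3; 95% interval -0.017 to 0.15), a Low level 1.05 times that in High goats. It had an adjusted p of 0.517 in limma. This SD was small, since 91.6% of the tested probes varied more between pairs, against 5.44% for BOLA and 48.4% for BOLA-DRB3. The interval included 0 and reached 0.15, so neither no difference nor a true difference of up to that size was excluded.

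With 1 loess curve per array, the part of each member's ratio that followed the dyes was larger in size than the part that followed the genotype. BOLA had log2 ratios of Low over High of 0.48 (A), 0.33 (B) and 0.080 (C) where the Low goat was labelled with Cy5. Where it was labelled with Cy3 they were -0.44 (A), -0.79 (B) and -0.53 (C). The sign thus turned with the dye in every pair.

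BOLA-DRB3 had 0.095, 0.15 and 0.062 with the Low goat in Cy5, and -0.46, -0.32 and -0.20 with the Low goat in Cy3. BOLA-DMB had 0.24, 0.34 and 0.26 with the Low goat in Cy5, and -0.067, -0.25 and -0.14 with the Low goat in Cy3. Both are given in the order A, B, C. All 3 members were above 0 on every array of the first orientation and below 0 on every array of the second, a pattern that 18.1% of the tested probes had. Duplicate spots on an array differed by at most 0.11, 0.13 and 0.095 for BOLA, BOLA-DRB3 and BOLA-DMB, less than the gap between the orientations in any pair.

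**Figure D2:**
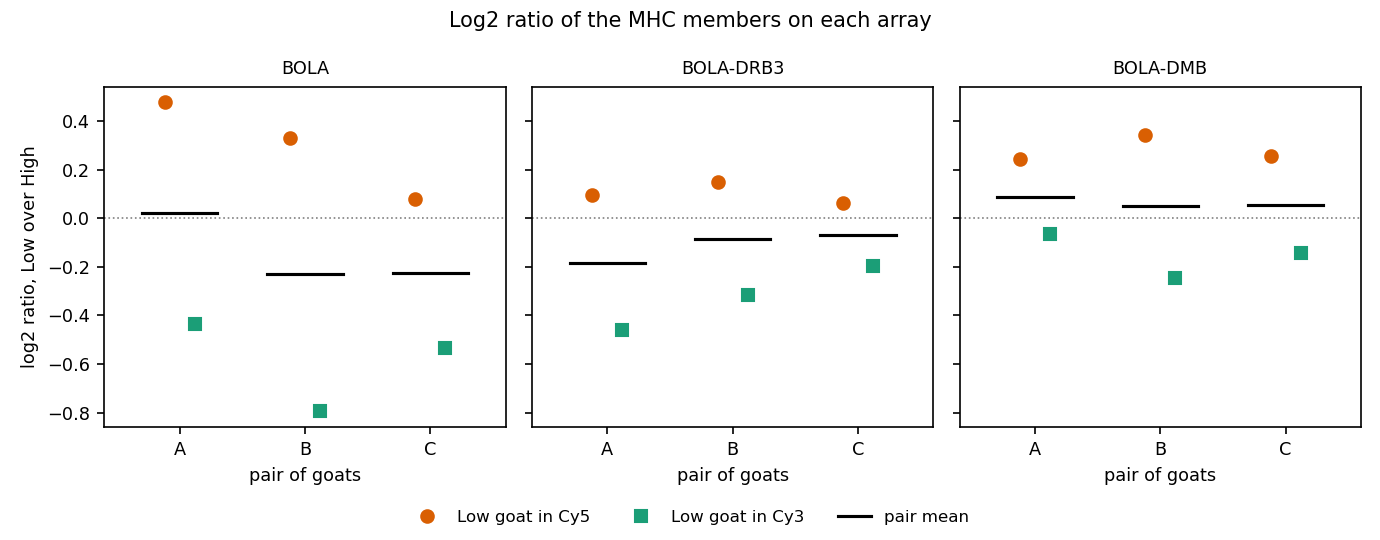
Log2 ratio of Low over High (vertical axis) for BOLA, BOLA-DRB3 and BOLA-DMB on each of the 6 arrays, by pair of goats (horizontal axis), circles for the array with the Low goat in Cy5, squares for that with the Low goat in Cy3 and a line for the pair mean. Every circle lies above 0 and every square below it, and the pair means lie between -0.23 and 0.088.

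The dye part was computed per pair as 0.5 times the difference between the orientations, which is a log2 ratio of Cy5 over Cy3. In BOLA it was 0.46 (A), 0.56 (B) and 0.31 (C) (mean 0.44 ± 0.13, SD, n = 3; limma adjusted p = 3.77e-05), or 1.36-fold more signal in Cy5. Only 0.861% of the tested probes had a larger dye part in either direction. In BOLA-DRB3 it was 0.28, 0.23 and 0.13 (mean 0.21 ± 0.076; adjusted p = 0.00204), and in BOLA-DMB 0.16, 0.30 and 0.20 (mean 0.22 ± 0.071; adjusted p = 0.00174). All 3 members passed, and so did 39.7% of the tested probes, 20.6% with more signal in Cy5, so a dye part as such is common on these arrays. With 14.4% of the probes above BOLA-DRB3 and 13.8% above BOLA-DMB in size, these parts were not extreme.

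With loess curves fitted to each printed block (print-tip loess) in place of 1 curve per array, the dye part of BOLA-DRB3 was -0.018 (adjusted p = 0.686), which ended its call. That of BOLA was then 0.13 (adjusted p = 0.0121) and that of BOLA-DMB 0.28 (adjusted p = 3.66e-04). The genotype ratios under this setting were -0.11 for BOLA, -0.066 for BOLA-DRB3 and 0.074 for BOLA-DMB.

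**Figure D3:**
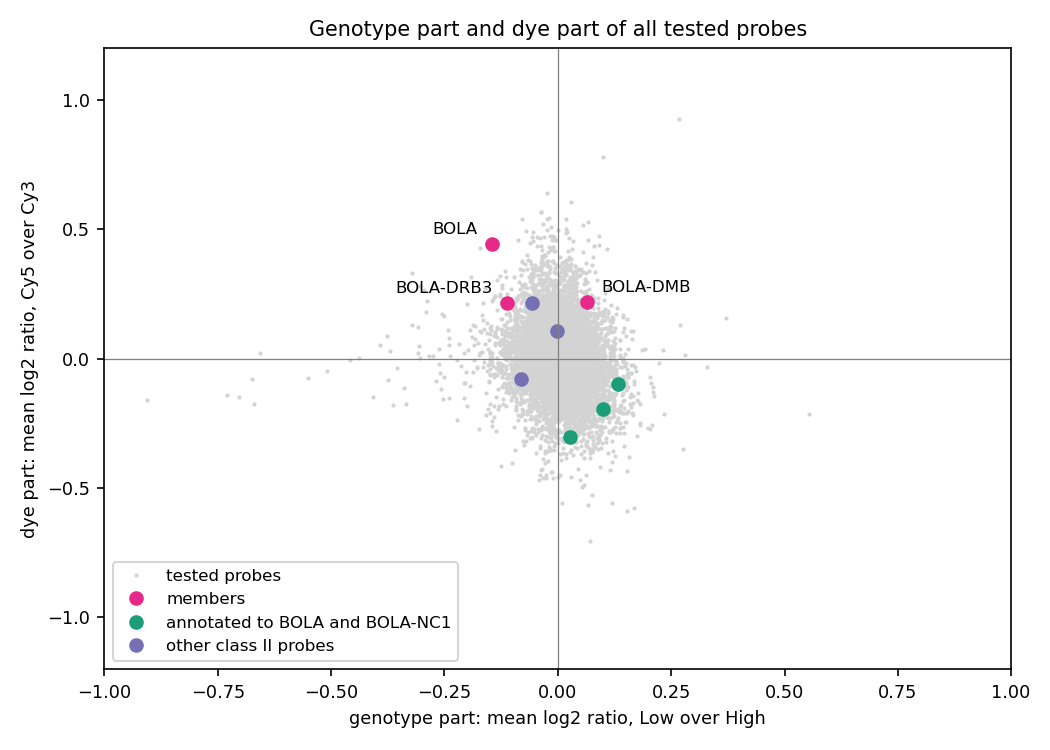
Genotype part (mean log2 ratio of Low over High, horizontal axis) and dye part (mean log2 ratio of Cy5 over Cy3, vertical axis) of the tested probes, with the 3 members, the 3 probes annotated to BOLA and BOLA-NC1 and the other class II probes in colour; 3 probes lie outside the axes. BOLA stands at the upper edge of the cloud with a dye part of 0.44, and the 3 probes annotated to BOLA and BOLA-NC1 lie on the other side of 0.

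The probes annotated to both BOLA and BOLA-NC1 had another pattern than the BOLA probe. Their log2 ratios of Low over High, in the order A, B, C, were -0.32, 0.14 and 0.26 for Bt00007018, -0.29, 0.12 and 0.57 for Bt00007213, and -0.11, 0.069 and 0.34 for Bt00007214. Each had pair A below 0 and pairs B and C above it. The BOLA probe had the opposite sign in pairs B and C, and in pair A it was near 0 (0.021). Mean ratios were 0.027 ± 0.31, 0.13 ± 0.43 and 0.10 ± 0.23 (SD, n = 3), with limma adjusted p of 0.928, 0.684 and 0.603, so no genotype difference was detectable.

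These probes varied widely between pairs. A larger SD over pairs was found for 0.104% of the tested probes in the case of Bt00007213, for 0.297% in that of Bt00007018 and for 0.891% in that of Bt00007214. An F test of the pair in limma, chosen after these values were seen and resting on the spread between the arrays of a pair, gave Bt00007213 an adjusted p of 0.0175. It called 14 probes in all, 0.208% of those tested. Bt00007018 had an adjusted p of 0.187 and Bt00007214 of 0.925 in that test. Bt00007018 passed it with median centring (adjusted p = 0.0270) and without pair B (adjusted p = 0.00826). For BOLA, BOLA-DRB3 and BOLA-DMB the adjusted p of the F test was 0.9995, and 0 of these 3 had an unadjusted p under 0.05, which 4.19% of the tested probes had.

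The call of Bt00007213 did not hold without pair A (adjusted p = 0.202) or without pair C (adjusted p = 0.0945), nor with the authors' deposited log2 ratios (adjusted p = 0.508). The range over its pairs was 0.86 in log2 ratio, and 0.45 without pair A and 0.41 without pair C.

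On single arrays, Bt00007213 had ratios of -0.51 (A), 0.023 (B) and 0.59 (C) with the Low goat in Cy5, and -0.076 (A), 0.21 (B) and 0.55 (C) with the Low goat in Cy3. Both arrays of pair C were high and both of pair A below 0, so its order of pairs was the same in both orientations. Its level was 9.40 (A), 9.07 (B) and 9.50 (C) in the Low goats, against 9.70 (A), 8.95 (B) and 8.93 (C) in the High goats, in log2 intensity. The High goat of pair A was the highest and the High goat of pair C the lowest.

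In the order A, B, C, Bt00007018 had ratios of -0.58, -0.31 and 0.071 with the Low goat in Cy5, and -0.060, 0.59 and 0.45 with the Low goat in Cy3. Bt00007214 had -0.33, -0.29 and 0.33 with the Low goat in Cy5, and 0.10, 0.43 and 0.35 with the Low goat in Cy3. Dye parts of these 3 probes were below 0, so the signal was higher in Cy3: -0.30 for Bt00007018 (adjusted p = 4.93e-04), -0.20 for Bt00007214 (adjusted p = 0.0136) and -0.098 for Bt00007213 (adjusted p = 0.120). With print-tip loess the first was -0.070 (adjusted p = 0.151). More signal in Cy3 was called for 19.1% of the tested probes. The dye part of Bt00007214 did not pass without pair B (-0.11, adjusted p = 0.169), with plain background subtraction (-0.23, adjusted p = 0.0887) or with median centring (-0.14, adjusted p = 0.0768), and that of Bt00007213 passed without pair C (-0.15, adjusted p = 0.0130).

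**Figure D4:**
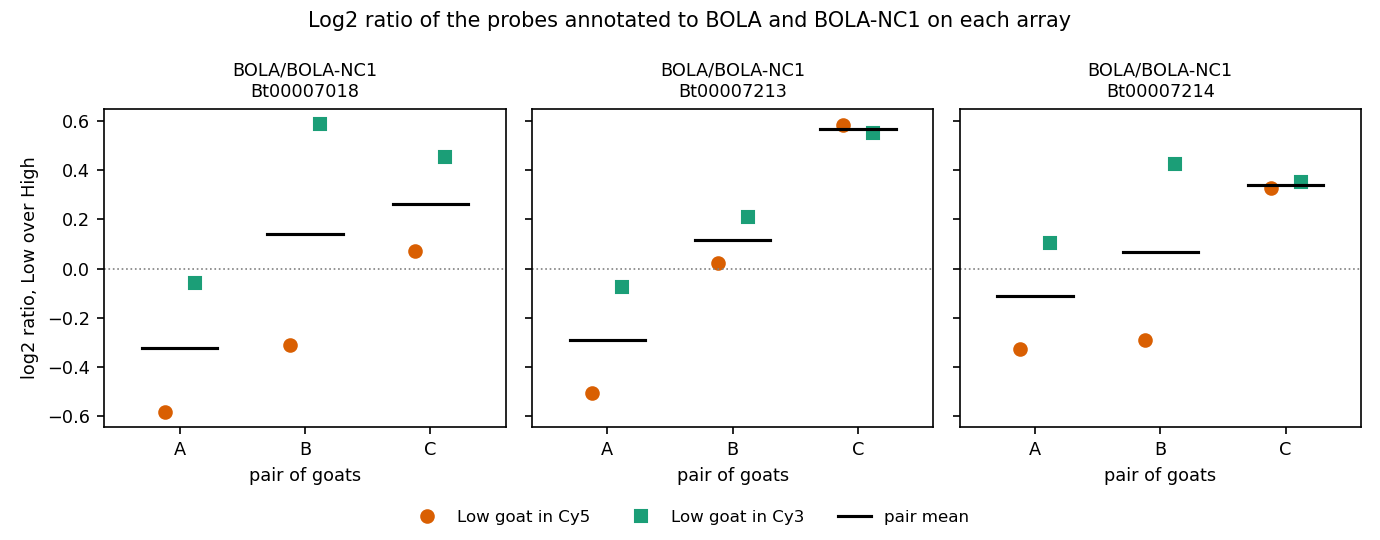
Log2 ratio of Low over High (vertical axis) of the 3 probes annotated to BOLA and BOLA-NC1 on each of the 6 arrays, by pair of goats (horizontal axis), circles for the array with the Low goat in Cy5, squares for that with the Low goat in Cy3 and a line for the pair mean. The pair means rank A, B, C upwards in each probe, between -0.29 and 0.57 for Bt00007213.

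Across the 6 arrays, which share goats within a pair, the log2 ratios of the 3 probes correlated with each other at Pearson's r of 0.749, 0.932 and 0.799, while BOLA had r = -0.904 with Bt00007018, -0.473 with Bt00007213 and -0.828 with Bt00007214. BOLA correlated with BOLA-DMB at 0.960 and with BOLA-DRB3 at 0.871, and BOLA-DRB3 with BOLA-DMB at 0.877. These values describe the arrays and hold the shared dye pattern. The BOLA probe thus did not move together over the arrays with the probes annotated to BOLA and BOLA-NC1. Its dye part had the opposite sign to theirs. Whether the genotype ratios of these probes differ from each other was not tested, so none of them is taken here to stand for class I as a whole.

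The other class II probes gave the members' partner chains. BOLA-DRA, the alpha chain gene that pairs with the DR beta chain, had pair ratios of -0.21 (A), -0.015 (B) and -0.023 (C) (mean -0.082 ± 0.11, SD, n = 3; limma adjusted p = 0.517). As in BOLA-DRB3, pair A was the lowest, and without it the BOLA-DRA ratio was -0.019. BOLA-DMA, the alpha chain gene of DM, had a mean log2 ratio of -0.058 ± 0.055 (adjusted p = 0.586), below 0 where BOLA-DMB was above it. With print-tip loess it was 0.0043, and without pair B -0.027.

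The probe annotated to BOLA-DQB1 and BOLA-DQB, beta chain genes of the DQ molecule, had -0.00074 ± 0.083 (adjusted p = 0.996). BOLA-DQA1, the DQ alpha chain gene, exceeded background in only 1 Low reading of 6 and 1 High reading of 6, and was not tested. Of the 10 MHC probes, then, 9 were tested and 0 passed for genotype. The dye part was 0.21 for BOLA-DMA (adjusted p = 0.00212), 0.11 for the BOLA-DQB1 and BOLA-DQB probe (adjusted p = 0.0769) and -0.078 for BOLA-DRA (adjusted p = 0.154). With print-tip loess the dye part of BOLA-DMA was 0.041 (adjusted p = 0.364), no longer passing, that of the BOLA-DQB1 and BOLA-DQB probe 0.14 (adjusted p = 0.0218) and that of BOLA-DRA -0.046 (adjusted p = 0.290).

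**Figure D5:**
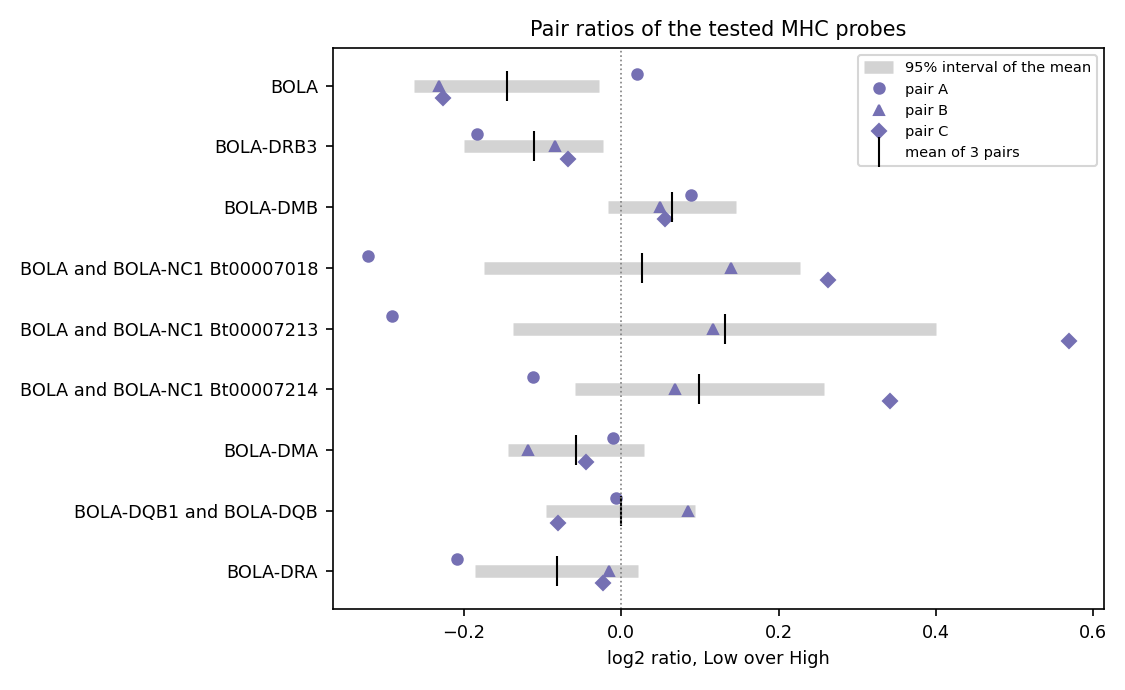
Log2 ratio of Low over High (horizontal axis) of the 9 tested MHC probes in pairs A, B and C (circle, triangle, diamond), with the mean of the 3 pairs (black line) and limma's 95% interval (grey bar). The intervals of BOLA and BOLA-DRB3 end below 0, at -0.028 and -0.023, and those of the other 7 probes include 0.

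Class I loading genes were counted next. Of 14 tested, 8 were above and 6 below 0, 0 passed, and 3 had an unadjusted p under 0.05, with a median log2 ratio of 0.014. Over all 5323 tested genes, 2 passed as higher and 23 as lower in Low goats, 594 had an unadjusted p under 0.05 and the median was 0.0033. PSME1, a subunit of the proteasome activator PA28, had -0.012 (A), -0.30 (B) and -0.27 (C) (mean -0.19, adjusted p = 0.302), near 0 in pair A like BOLA. Without pair A, with only pairs B and C left, the PSME1 ratio was -0.28 (limma adjusted p = 0.0207). In that setting 67 of all tested probes passed, against 30 with all pairs. The dye part of PSME1 was 0.32, larger in size than its genotype ratio. CALR, the chaperone calreticulin, had a mean log2 ratio of -0.10 and PSMB10, an immunoproteasome subunit, 0.10. TAP2, a chain of the peptide transporter, was at -0.022, TAPBP (tapasin), which bridges it to class I, at 0.043, and the immunoproteasome subunits PSMB8 and PSMB9 were at 0.0060 and 0.061. Beta-2-microglobulin (B2M) was not analysed here.

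Of 13 tested class II pathway genes, 5 were above and 8 below 0, 0 passed, 2 had an unadjusted p under 0.05 and the median was -0.011. CD74, the invariant chain, had a mean log2 ratio of 0.076 (adjusted p = 0.583) and pair ratios of 0.057 (A), -0.047 (B) and 0.22 (C). IFI30, a reductase that opens disulfide bonds of antigens, was at 0.15 (adjusted p = 0.284), and CST3, the protease inhibitor cystatin C, at -0.10 (adjusted p = 0.407). RFX5, a factor that drives class II genes, was at -0.036 and the proteases LGMN and CTSL at 0.032 and -0.027.

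Among the class I-like molecules 5 were tested, 1 above and 4 below 0, with a median of -0.076 and 0 passing. AZGP1, a soluble class I-like glycoprotein, was at -0.13 (adjusted p = 0.329), HFE, a regulator of iron uptake, at -0.076, CD1B, which shows lipids to T cells, at -0.078 and FCGRT, the neonatal Fc receptor, at 0.0034. Of 11 tested interferon genes 7 were above and 4 below 0, with a median of 0.028 and 0 passing. IRF1, a factor that activates class I genes, was at -0.091, IFI44L at -0.11, and HAVCR2, a T cell surface receptor, at -0.17. HAVCR2 was dim, above background in 2 Low and 4 High readings. The co-stimulation genes ICOS and CD40 were at 0.026 and -0.0099. In these lists together 0 of 45 tested genes passed, and 8 had an unadjusted p under 0.05, against 594 of 5323 over all tested genes.

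Markers of cells that carry MHC molecules were set beside these values, and their part in them was not tested. Of 7 leukocyte markers 3 were above and 4 below 0, with a median log2 ratio of -0.019, and per goat their mean level lay between 9.12 and 9.37 in Low goats and between 9.14 and 9.36 in High goats. ITGB2, a leukocyte integrin chain, was at -0.16 (adjusted p = 0.311), CORO1A at -0.058 and LCP1 at -0.058. Of 11 macrophage and dendritic cell markers, 10 were above 0 and 1 below, with a median of 0.072, and 4 had an unadjusted p under 0.05 but 0 passed. Of all 5323 tested genes, 2767 were above 0 and 594 had such a p. FCGR2B, an Fc receptor, was at 0.15, C1QB, a complement subunit, at 0.12 and CD68, a lysosomal protein of macrophages, at 0.12. FCGR2B was dim, above background in 3 Low and 4 High readings. The mean level of the 11 markers lay between 9.13 and 9.36 in Low goats and between 9.08 and 9.27 in High goats.

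For B cells only CD79A, a chain of the B cell receptor, was tested, at -0.051. The 7 T and NK cell markers had a median of -0.010, with KLRD1 at -0.15, ZAP70 at 0.093 and NKG7 at -0.059. Over 4 plasma cell markers the median was 0.0078, with the immunoglobulin gene IGHG1 at -0.11, SDC1 at 0.044 and JCHAIN at 0.020, and over 3 neutrophil markers 0.019, with FCAR at 0.14, ELANE at -0.031 and MPO at 0.019. The 16 mammary epithelium markers had a median of -0.016. Their widest values were those of the milk protein genes LTF (-0.67, SD 0.56), LALBA (0.55, SD 0.46) and PAEP (-0.44, SD 0.43), each with an adjusted p of at least 0.170. The 3 endothelium markers had a median of -0.0043 (CDH5 -0.077, VWF 0.027, TIE1 -0.0043) and the 3 fibroblast markers one of -0.11 (SPARC -0.13, VIM -0.11, DCN 0.0031). SPARC was dim, above background in 3 Low and 4 High readings, and so was JCHAIN, in 5 Low and 2 High readings. In these 9 lists 0 genes passed, and 15 of 55 had an unadjusted p under 0.05, against 594 of all 5323 tested genes. Milk protein genes such as LALBA and PAEP were above background in all readings, which goes with the labelled tissue. Of the 18 listed epithelium genes on the array, 16 were tested, and BTN1A1 and XDH were not.

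Genes most like the members were named by Pearson's r over the 6 arrays among 5526 tested probes with 1 symbol. For BOLA these were LRP2BP (0.999), SSH1 (0.998) and SUV39H1 (0.996). BOLA-DRB3 was most like GRM7 (0.997), C1GALT1 (0.995) and LIPE (0.994), and BOLA-DMB most like WBP11 (0.998), the keratin gene KRT18 (0.997) and SLX1A (0.997). All 9 had the members' pattern of signs, above 0 with the Low goat in Cy5 and below 0 with it in Cy3. LRP2BP, for example, had 0.41 (A), 0.31 (B) and 0.15 (C) in the first orientation, and -0.18 (A), -0.41 (B) and -0.28 (C) in the second. These likenesses were thus likenesses in dye pattern, with the arrays of a pair sharing goats.

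In the authors' deposited table of log2 ratios, BOLA averaged -0.15 over the pairs, BOLA-DRB3 -0.12 and BOLA-DMB 0.071. Values of single arrays in the authors' deposited table differed from those above by at most 0.070, 0.060 and 0.016. The sign of each member, and its turn with the dye on every pair of arrays, was the same from either source. The normalisation behind that table is not known here.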

How the data were processed

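Goat mammary RNA, 5 µg per labelling, was hybridised to 6 arrays with 2 dyes. The authors deposited spot and background intensity per dye channel on a linear scale, read with ImaGene 6.0 per the labels (6.0.1 per the file headers), with background not subtracted. They also deposited a table of log2 ratios per spot, whose scale and direction (Low over High) were settled against the intensities and whose column medians run from -0.014 to 0.0034, while its normalisation is unknown here.

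From the signal and background means, limma 3.58.1 in R 4.3.3 corrected background (normexp, offset 50) and fitted 1 loess curve per array. Spots marked manual or poor were left out, duplicate spots averaged, and ratios turned to Low over High. Tests took the 6733 probes with a ratio from each of the 6 arrays and a signal more than 2 background SDs over background in 6 or more of the 12 readings. The pair means were tested against 0 with limma's moderated test, Benjamini-Hochberg adjusted over all tested probes, threshold 0.05. The labels pair the goats by array, and the arrays of a pair hold the same RNA, so they counted as 1 replicate. The pooled spread had 7.47 degrees of freedom against 2 of a probe's own. The dye parts were tested likewise. Goat levels used loess and Aquantile.

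Members, lists and tests were chosen with earlier results of these data known. Named were all member probes, the 3 genes of smallest p in each of 5 pathway and 9 cell type lists, the 3 probes most like each member, and CSN1S1. The MHC probes that are no members, and TAP2, TAPBP, PSMB8, PSMB9, CD74, RFX5, LGMN, CTSL and FCGRT, were named for their roles after their values were seen. Lists used the brightest probe of a gene. Symbols come from the platform annotation (6840 probes with 1, 93 with several, 1446 with none); 6020 of the 6535 symbols from probes with 1 occur in the goat table of assembly ARS1.2, whose coordinates were not used.

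On simulated arrays of 6608 probes, 100% of changed probes were recovered at 1.25-fold, 1.5-fold and 2-fold for genotype, with 11 false calls, and for the dye part, with 5. The members' genotype ratios (0.904, 0.926 and 1.05 times) were smaller changes than 1.25-fold, and recovery of changes that small was not simulated. In the simulation for genotype and dye part every probe had the same spread between pairs, the median SD of the tested probes (0.061). The SDs over pairs of BOLA (0.14) and of the probes annotated to BOLA and BOLA-NC1 (0.23 to 0.43) were larger. Recovery for probes that vary this much was not simulated. For differences between pairs, 96.5% of 199 were recovered among 6599 probes, with 3 false calls. That separate run planted differences of a single size and gave the probes no other spread between pairs. Its recovery is therefore no measure of how the F test does on the measured probes. Alternatives are in the closing section. Probe sequences were not used here.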

Additional observations from a re-analysis of the deposited data

Results flagged for a closer look

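The members' ratios differed between the dye orientations by a test of the difference itself. The dye part, a log2 ratio of Cy5 over Cy3 tested over 3 pairs with limma, was 0.442 for BOLA (adjusted p = 3.77e-05), 0.213 for BOLA-DRB3 (adjusted p = 0.00204) and 0.217 for BOLA-DMB (adjusted p = 0.00174). It was above 0 in 3 of 3 pairs for each. The same test called 39.7% of all tested probes. With print-tip loess the value of BOLA-DRB3 was -0.018 (adjusted p = 0.686), and its cause was not tested.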

How the results depend on the processing

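Under 16 of 18 alternatives 0 members passed for genotype and each member kept its sign, with ratios without 1 pair of -0.23 to -0.10 for BOLA, -0.13 to -0.075 for BOLA-DRB3 and 0.053 to 0.072 for BOLA-DMB. The exceptions use arrays of 1 dye orientation, where the dye part does not cancel. With the Low goat in Cy5, 2 members passed (BOLA at 0.30 and BOLA-DMB at 0.28, with BOLA-DRB3 at 0.10), as did 7 antigen presentation genes and 1153 probes. With the Low goat in Cy3, 3 members passed (BOLA at -0.59, BOLA-DRB3 at -0.32 and BOLA-DMB at -0.15), as did 17 of those genes and 2453 probes.

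Among antigen presentation genes 1 (HAVCR2) passed with a dye term and the pair as a random block, and 0 to 1 without 1 pair (PSME1, without pair A). Over all probes, against 30, the genotype calls were 0 with unpaired goats, where CSN1S1 did not pass either, 1 with plain background subtraction, 18 with the authors' deposited ratios, 19 with an offset of 10 or with medians of signal and background, 59 with the random block and 67 without pair A.

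Dye parts of members stayed called under 14 of 14 alternatives for BOLA (0.13 to 0.51) and BOLA-DMB (0.18 to 0.28), and under 13 for BOLA-DRB3, which was -0.018 with print-tip loess. Dye calls over all probes were 1633 without pair A, 1691 without pair B and 1770 with print-tip loess, against 2674.

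Of the other MHC probes, with the Low goat in Cy5 the genotype ratio turned sign in Bt00007018 (-0.27), Bt00007214 (-0.096), BOLA-DMA (0.16) and the BOLA-DQB1 and BOLA-DQB probe (0.11). It also turned in BOLA-DMA with print-tip loess (0.0043) and in the BOLA-DQB1 and BOLA-DQB probe with print-tip loess (0.036) and median centring (0.027). Without 1 pair the ratios ran from -0.091 to 0.20 in Bt00007018, -0.087 to 0.34 in Bt00007213, -0.022 to 0.21 in Bt00007214, -0.081 to -0.027 in BOLA-DMA, -0.12 to -0.019 in BOLA-DRA and -0.044 to 0.039 in the BOLA-DQB1 and BOLA-DQB probe. The spread between pairs of Bt00007213 stayed called under 4 of 10 alternatives, and that of Bt00007018, not called in the main setting, passed under 2. All these alternatives were chosen after seeing the data. The cause of these shifts was not tested.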
